A study of Mus musculus with 16 samples.

Results

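Disease-associated microglia genes are a set of transcripts that microglia, the resident macrophages of the brain, raise near amyloid plaques and in other neurodegeneration models. The set described here has 34 named genes, and the members were all array probes whose platform gene symbol is one of them. TREM2 signalling genes, Gpnmb and the apolipoproteins were not counted as members. Probes were found for 32 of the 34 genes, of 16593 genes named on the array. Spp1 and Cd68, which belong to the set, had no probe under those symbols, and their levels were not analysed here. The 32 genes had 42 probes of 25697 in all. Of these, 40 probes of 31 genes were above background on at least 2 arrays and were tested, and 36 were above background on all 16 arrays. The probe of Cybb, a subunit of the phagocyte NADPH oxidase, and 1 of 2 probes of Fabp5 were above background on none.

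As background, the disease-associated state was defined by single-cell RNA sequencing in mice, and its later stage depends on the receptor TREM2 with its adaptor TYROBP. Its genes encode lysosomal proteases and their inhibitor cystatin F, proteins of lipid uptake and storage, surface receptors such as CD11c and Dectin-1, and secreted factors such as IGF1. Genes of resting microglia, among them Tmem119 and P2ry12, fall in the same cells.

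The data were 16 Illumina arrays of RNA from CD11b-selected mouse brain cells labelled microglia, on a genetic background given as BL6 and 129/Sv. SIRT1F/F mice carry floxed alleles of Sirt1, which encodes a protein deacetylase that uses NAD. LysM-Cre/SIRT1F/F mice (LysM-Cre below) also carry Cre recombinase at Lyz2, a locus expressed by neutrophils, monocytes and macrophages as well as microglia. Both genotypes were sampled at ages labelled young and old, giving 4 groups of 3 arrays that all carry the floxed alleles. The TAU and TAU/LysM groups had 2 arrays each. Their labels give no age, no transgene or promoter, and do not repeat the floxed genotype, so TAU arrays were compared with both the young and the old groups, and age cannot be told apart from TAU genotype in any single one of these comparisons. No label says whether the arrays of a group came from separate animals or pools, so any p-value here reflects only array-to-array spread, which may be technical.

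Array medians lay between 202.9 and 283.6 intensity units, 54.9% to 57.5% of probes were above background, and arrays of a group correlated at 0.984 to 0.994. Markers of microglia and macrophages were above background on every array, with mean log2 levels of 12.90 to 13.65 over 5 genes. The Sirt1 probe was not called between genotypes, with log2 differences of 0.03 ± 0.12 (SE) for young, 0.07 ± 0.12 for old and 0.05 ± 0.15 for TAU arrays (adjusted p = 0.953, 0.945 and 0.928). It was lower in TAU than in young SIRT1F/F (-0.46 ± 0.14, adjusted p = 0.0445). Where that probe lies relative to the floxed exon is not known, so it checks nothing about the deletion. On 3 arrays Xist and on 2 others Eif2s3y lay near background, while 11 arrays had both transcripts. In bulk RNA, a larger share of cells in the disease-associated state and more RNA per cell cannot be told apart, nor can a share of CD11b-positive cells that are not microglia.

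Promoters of 4 members are shown as examples of short motifs of factors known to act in macrophages. They were picked from members whose levels moved in TAU arrays or between genotypes. The sequences are RefSeq windows on GRCm38.p6 from 250 bases before to 50 bases after an annotated start, with the first transcribed base as position 1. Cst7 (chr2:150570165-150570464, plus strand) holds AGGAAGT, a core site of the macrophage factor PU.1, at -63. Ctsd (chr7:142387778-142388077, minus strand) holds the E-box CACGTG, read by TFEB and related factors, at -245 and -98. Fabp3 (chr4:130308488-130308787, plus strand) holds TCATGTG, an M-box of the MITF family, at -46. Plin2 (chr4:86670010-86670309, minus strand) holds CACGTG at -4. Capitals mark the motifs.
Cst7: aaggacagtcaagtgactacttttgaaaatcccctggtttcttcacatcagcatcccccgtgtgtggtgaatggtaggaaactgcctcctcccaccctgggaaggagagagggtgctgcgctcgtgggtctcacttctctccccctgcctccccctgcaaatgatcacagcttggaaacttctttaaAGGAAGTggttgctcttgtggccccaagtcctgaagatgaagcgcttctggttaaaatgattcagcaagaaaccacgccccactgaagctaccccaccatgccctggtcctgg
Ctsd: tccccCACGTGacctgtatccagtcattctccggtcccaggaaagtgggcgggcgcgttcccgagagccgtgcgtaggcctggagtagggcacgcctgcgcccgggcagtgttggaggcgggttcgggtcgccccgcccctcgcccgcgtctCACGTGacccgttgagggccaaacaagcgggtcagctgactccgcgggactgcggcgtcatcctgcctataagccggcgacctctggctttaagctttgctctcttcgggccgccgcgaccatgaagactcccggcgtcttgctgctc
Fabp3: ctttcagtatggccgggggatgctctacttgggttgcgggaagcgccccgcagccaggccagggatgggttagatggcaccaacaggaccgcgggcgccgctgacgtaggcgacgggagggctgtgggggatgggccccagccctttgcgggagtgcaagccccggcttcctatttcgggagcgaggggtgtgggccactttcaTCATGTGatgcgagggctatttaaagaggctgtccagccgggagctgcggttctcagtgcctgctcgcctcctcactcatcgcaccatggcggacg
Plin2: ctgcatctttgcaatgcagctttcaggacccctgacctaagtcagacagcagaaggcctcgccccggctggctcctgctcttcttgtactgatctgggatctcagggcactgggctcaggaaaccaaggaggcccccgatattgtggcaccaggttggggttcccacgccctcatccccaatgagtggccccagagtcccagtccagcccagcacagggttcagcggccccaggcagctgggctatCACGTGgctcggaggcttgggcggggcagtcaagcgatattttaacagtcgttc
Each motif was searched on both strands of the windows of 26 members found in the RefSeq table, Spp1 and Cd68 included. AGGAAGT was in windows of 4 of these 26 genes against 10.7% of all genes, CACGTG in 5 against 8.09%, and TCATGTG in 2 against 4.31%. Beside the genes printed, AGGAAGT was in windows of Ccl6, Gpr84 and Spp1, CACGTG in those of Ctsl, Egr2 and Hif1a, and TCATGTG in Fth1. The level of Spp1 was not measured. Gpr84, Egr2 and Fth1 were called in no comparison, and Ctsl was called lower. Windows of Itgax, Clec7a, Igf1 and Ank, all called higher in TAU, held none of these motifs. These matches describe letters in a window and say nothing of binding.

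Most members were higher in TAU than in other arrays, with or without LysM-Cre. Few were called with age or genotype, where at most 1.71% of all probes were called in any comparison. At an unadjusted p under 0.05 (limma), 11 of 40 member probes differed with age in SIRT1F/F and 17 in LysM-Cre. Over all probes the shares were 14.7% and 17.4%. Of the 40 tested member probes, 26 of 21 genes rose in TAU against young SIRT1F/F and 1 fell, where 6.31% of all 16344 tested probes were called higher and 5.64% lower (limma, Benjamini-Hochberg adjusted p under 0.05). In TAU against old SIRT1F/F, 15 probes of 12 genes rose and none fell, against 2.72% higher and 1.27% lower over all probes. In TAU/LysM against young LysM-Cre, 26 probes of 21 genes rose and none fell, against 3.46% and 3.81%. In TAU/LysM against old LysM-Cre, 19 probes of 16 genes rose and none fell, against 1.48% and 0.783%. Among the 36 probes above background on all arrays, the counts higher were 23, 14, 24 and 17 in the same order, with Ctsl the 1 lower.

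**Figure D1:**
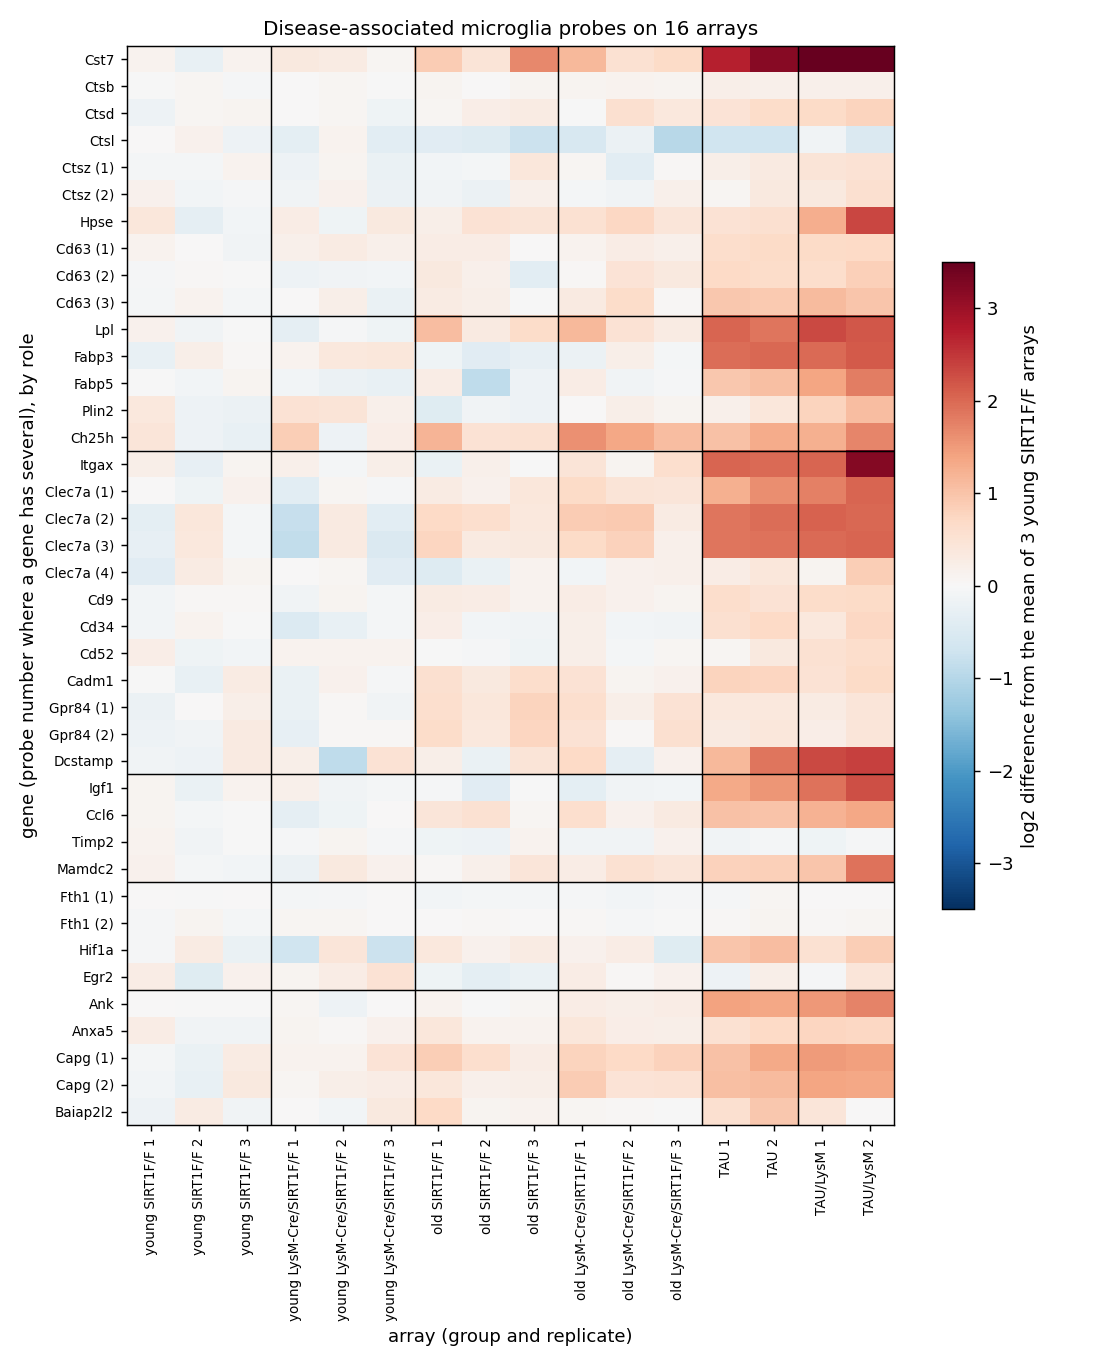
Each row is a tested member probe grouped by role and each column an array, and colour gives the log2 difference from the mean of the 3 young SIRT1F/F arrays. The 4 TAU and TAU/LysM columns on the right are red for most members, with Cst7 the darkest row, while Fth1, Timp2 and Ctsb stay pale throughout.

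The median member difference was 0.72 on the log2 scale in TAU against young SIRT1F/F (all tested probes -0.04), 0.52 against old SIRT1F/F (all -0.02), 0.83 in TAU/LysM against young LysM-Cre (all -0.02) and 0.57 against old LysM-Cre (all 0.00). On 23 member probes of 18 genes, all 4 TAU and TAU/LysM arrays lay above all 12 others, which held for 2.23% of all tested probes, and on 0 member probes did all 4 lie below. The genes called higher in all 4 TAU comparisons were Cst7, Cd63, Lpl, Fabp3, Fabp5, Itgax, Clec7a, Igf1, Ccl6, Ank and Capg. Not every probe of Cd63, Clec7a and Capg was. The share of all probes called in all 4 was not counted. It cannot exceed the 1.48% called higher in TAU/LysM against old LysM-Cre. For 6 of these genes, Cst7, Fabp3, Itgax, Igf1, Ank and Clec7a (first probe), all 4 TAU calls also held when any single array was left out. The share of all probes that did so was not counted. Ctsb, Ctsz, Gpr84, Timp2, Fth1 and Egr2 were called in none of the 12 comparisons.

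The number of calls depended on single TAU arrays, as leaving one out left a lone array that is assumed to vary like the other groups. Against young SIRT1F/F, 13 member probes were called without TAU 1 and 15 without TAU 2. Against old SIRT1F/F, the count was 6 without TAU 1, 7 without TAU 2, and 9 without old SIRT1F/F 2 or 3. In TAU/LysM against young LysM-Cre it was 16 without TAU/LysM 2. Against old LysM-Cre it was 7 without TAU/LysM 2, 11 without TAU/LysM 1 and 10 without old LysM-Cre 3. Leaving out all 5 arrays with Xist or Eif2s3y near background left a single array each of young LysM-Cre, old SIRT1F/F and TAU/LysM. Only TAU against young SIRT1F/F kept all its arrays, with 24 member probes called. The other TAU comparisons then rest on a lone array on at least 1 side, and their counts are not given.

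Markers of other cells also moved with the TAU group. The oligodendrocyte list (7 genes tested) had a mean log2 level of 10.28 to 10.65 on the 2 TAU arrays, 7.89 to 7.91 on TAU/LysM, and 7.63 to 8.52 on the 12 others, and 6 of its 7 genes rose in TAU against young SIRT1F/F. The choroid plexus and ependyma list (6 genes) lay at 11.74 to 12.19 in TAU, 9.80 to 10.51 in TAU/LysM and 9.69 to 10.92 elsewhere. In TAU/LysM against young LysM-Cre, 0 oligodendrocyte and 0 choroid plexus genes were called, and 26 member probes were. With the oligodendrocyte level as a covariate, which separates TAU from the other arrays, the median standard error of the members in TAU against young SIRT1F/F rose from 0.17 to 0.67. Then 0 of the 40 member probes and 0 of all probes were called by limma, with 5 members and 951 probes at an unadjusted p under 0.05. With it, 11 member probes turned below 0 in TAU against young SIRT1F/F and 12 against old SIRT1F/F, so that those above 0 numbered 27 and 24 in place of 38 and 36. Called members that turned were Dcstamp (-0.289), Fabp5 (-1.018), Anxa5 (-0.339) and Ch25h (-1.429) in TAU against young SIRT1F/F, and Fabp5 (-0.813) and Cst7 (-0.85) against old SIRT1F/F. Members without a call that turned in both were Plin2, Egr2, Cd52, Hpse and both probes of Ctsz. Astrocyte genes (6 tested) lay at 9.15 to 9.18 in TAU, 8.61 to 8.73 in TAU/LysM and 8.38 to 9.18 elsewhere, with 4 called higher and 1 lower in TAU against young SIRT1F/F and 2 higher against old SIRT1F/F. Monocyte genes (4 tested) lay at 9.10 to 9.70 in TAU, 10.37 to 10.54 in TAU/LysM and 9.54 to 11.38 elsewhere, and 2 fell in TAU against old SIRT1F/F. Of 3 B cell genes, 1 fell in TAU and 2 in TAU/LysM against the young groups, and 1 of 3 neuron genes rose in TAU against young SIRT1F/F. The part of these lists in the member differences was not tested. The same covariate left 27 member probes called in TAU/LysM against young LysM-Cre. Oligodendrocyte levels of TAU/LysM lay within those of the 12 other arrays, and the median standard error there was 0.18 in place of 0.17. The covariate could thus change little in that comparison, and its count says nothing of the TAU arrays. Border-associated macrophage genes (6 tested) lay at 12.92 to 12.99 in TAU/LysM, 12.35 to 12.53 in TAU and 11.96 to 12.93 elsewhere. Of these, Lyve1 was 0.95 ± 0.23 higher in TAU/LysM against young LysM-Cre. The part of these macrophages was not tested either.

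**Figure D2:**
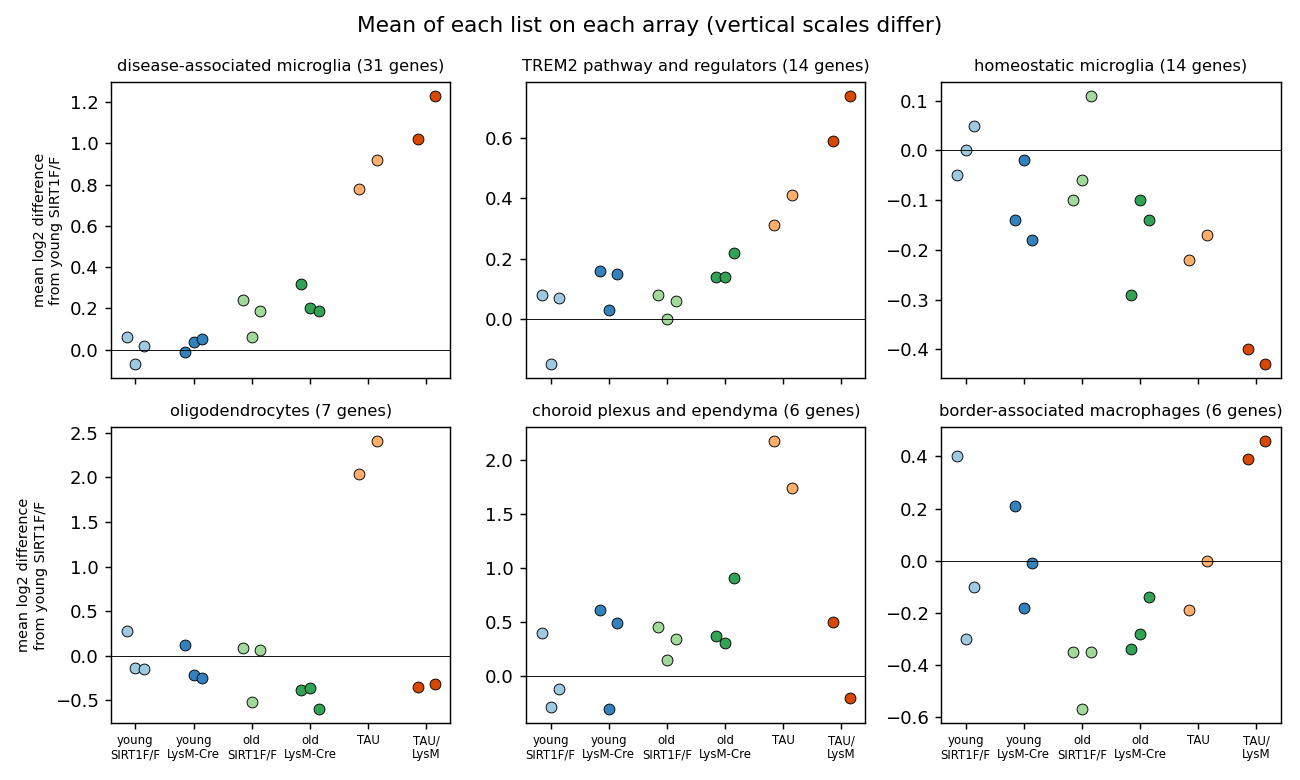
Points are single arrays, by group on the horizontal axis, and the vertical axis gives the mean log2 difference of a gene list from young SIRT1F/F, with a scale of its own in each panel. Disease-associated genes were 0.78 to 0.92 higher in TAU and 1.02 to 1.23 higher in TAU/LysM, while oligodendrocyte and choroid plexus genes were high on the 2 TAU arrays and not on TAU/LysM.

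Among the lysosomal members (7 genes, 10 probes), the protease inhibitor Cst7 moved most and the proteases little. Cst7 encodes cystatin F, which inhibits cathepsins. Its log2 levels were 8.37, 7.98 and 8.38 for young SIRT1F/F, 8.58, 8.53 and 8.32 for young LysM-Cre, 9.13, 8.71 and 9.93 for old SIRT1F/F, and 9.39, 8.79 and 8.92 for old LysM-Cre. They were 10.97 and 11.44 in TAU and 11.93 on both TAU/LysM arrays. All 4 TAU-background arrays lay above the highest other array, and the old arrays lay above all young ones. The difference was 2.96 ± 0.28 (SE; 7.79-fold, adjusted p = 5.86e-05) in TAU against young SIRT1F/F and 1.95 ± 0.28 (adjusted p = 0.0023) against old SIRT1F/F. In TAU/LysM it was 3.46 ± 0.28 (adjusted p = 1.26e-05) against young LysM-Cre and 2.90 ± 0.28 (adjusted p = 0.000146) against old LysM-Cre.

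Cd63, a tetraspanin of late endosomes and lysosomes, rose on all 3 probes in TAU and in TAU/LysM against the young groups. The probe of highest level read 14.16, 14.05 and 13.92 for young SIRT1F/F, 14.21, 14.33 and 14.22 for young LysM-Cre, 14.31, 14.31 and 14.06 for old SIRT1F/F, and 14.16, 14.29 and 14.23 for old LysM-Cre. It read 14.67 and 14.71 in TAU and 14.73 on both TAU/LysM arrays, so these 4 arrays lay above the rest. Its difference was 0.64 ± 0.11 (adjusted p = 0.00253) in TAU against young SIRT1F/F. The other 2 probes differed by 0.67 ± 0.18 and 0.93 ± 0.17 in that comparison. Against the old groups this probe and the third were called and the second was not (0.61 ± 0.18, adjusted p = 0.0744, in TAU). Both calls against old SIRT1F/F were lost without old SIRT1F/F 2 or 3 or either TAU array, and those against old LysM-Cre without any 1 of 5 arrays for the first probe and 11 for the third. Against the young groups, the first probe lost its TAU/LysM call without young LysM-Cre 1 or 3 or either TAU/LysM array, and the third its TAU call without TAU 1. The second probe lost its TAU call without young SIRT1F/F 1 or 3 or either TAU array, and its TAU/LysM call without TAU/LysM 2.

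Hpse encodes heparanase, an endoglycosidase that cleaves heparan sulfate. Its log2 levels were 7.66, 6.93 and 7.17 for young SIRT1F/F, 7.5, 7.10 and 7.60 for young LysM-Cre, 7.45, 7.75 and 7.70 for old SIRT1F/F, and 7.77, 7.98 and 7.66 for old LysM-Cre. TAU read 7.77 and 7.82, within the range of the old groups, whereas TAU/LysM read 8.52 and 9.59. Against young LysM-Cre, TAU/LysM was 1.66 ± 0.27 higher (adjusted p = 0.00325) and against old LysM-Cre 1.25 ± 0.27 (adjusted p = 0.0295). Without TAU/LysM 2, which stands apart, these became 1.12 and 0.71 and neither was called. The second was also not called without any 1 of the old LysM-Cre arrays.

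The proteases were mixed. Ctsd, cathepsin D, read 9.57, 9.80 and 9.84 for young SIRT1F/F, 9.76, 9.79 and 9.57 for young LysM-Cre, 9.81, 9.96 and 10.01 for old SIRT1F/F, and 9.73, 10.30 and 10.10 for old LysM-Cre. It read 10.20 and 10.36 in TAU and 10.39 and 10.51 in TAU/LysM, so TAU overlapped old LysM-Cre. It rose by 0.55 ± 0.15 (adjusted p = 0.0338) in TAU against young SIRT1F/F and by 0.75 ± 0.15 (adjusted p = 0.0128) in TAU/LysM against young LysM-Cre, and was not called against the old groups. Both calls were lost when either array of the TAU group concerned was left out, the first also without young SIRT1F/F 1 or 3. Ctsl, cathepsin L, went the other way in TAU against young SIRT1F/F and was called in no other TAU comparison. It read 9.31, 9.45 and 9.12 for young SIRT1F/F, 8.95, 9.42 and 8.91 for young LysM-Cre, 8.91, 8.85 and 8.55 for old SIRT1F/F, 8.73, 9.08 and 8.31 for old LysM-Cre, 8.60 on both TAU arrays and 9.17 and 8.80 in TAU/LysM. TAU was 0.70 lower than young SIRT1F/F (-0.70 ± 0.21, adjusted p = 0.0498), a call that was lost without any 1 of 13 arrays. Ctsz, cathepsin Z, on 2 probes was 0.58 ± 0.17 and 0.52 ± 0.15 higher in TAU/LysM against young LysM-Cre and not called (adjusted p = 0.0513 and 0.0555). Ctsb, cathepsin B, read 29869 to 38944 intensity units on all arrays, where the brightest probe of an array read 42456 to 49192, so a difference there may be compressed.

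Of the 5 lipid members, Lpl, Fabp3 and Fabp5 were called higher in all 4 TAU comparisons and Ch25h against the young groups alone. Plin2 was called only in TAU/LysM against old LysM-Cre, a call lost without any 1 array of either group. Lpl encodes lipoprotein lipase, which frees fatty acids from triglyceride. It read 12.02, 11.76 and 11.85 for young SIRT1F/F, 11.55, 11.83 and 11.73 for young LysM-Cre, 12.94, 12.18 and 12.51 for old SIRT1F/F, and 13.02, 12.39 and 12.16 for old LysM-Cre. TAU read 13.90 and 13.75 and TAU/LysM 14.17 and 14.04, above every other array. The log2 difference was 1.95 ± 0.23 (3.87-fold, adjusted p = 0.000293) in TAU against young SIRT1F/F and 2.40 ± 0.23 (5.28-fold, adjusted p = 7.01e-05) in TAU/LysM against young LysM-Cre. Against old arrays it was 1.28 ± 0.23 in TAU (adjusted p = 0.0077, not called without TAU 1) and 1.58 ± 0.23 in TAU/LysM (adjusted p = 0.00324).

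Fabp3, a fatty acid binding protein best known from heart muscle, read 7.79, 8.26 and 8.10 for young SIRT1F/F, 8.18, 8.42 and 8.44 for young LysM-Cre, 7.89, 7.65 and 7.77 for old SIRT1F/F, and 7.86, 8.26 and 7.98 for old LysM-Cre. TAU read 9.999 and 10.07 and TAU/LysM 10.03 and 10.21, with a gap of more than 1 log2 unit to the next array. Its promoter with the M-box is among those printed. Fabp3 was 1.98 ± 0.15 higher in TAU against young SIRT1F/F (adjusted p = 8.54e-06) and 2.26 ± 0.15 higher against old SIRT1F/F (adjusted p = 3.54e-06). TAU/LysM exceeded young LysM-Cre by 1.78 ± 0.15 and old LysM-Cre by 2.09 ± 0.15 (adjusted p = 2.2e-05 and 6.02e-06). Unlike Lpl and Cst7, the values with age lay below 0, at -0.28 ± 0.14 in SIRT1F/F and -0.31 ± 0.14 in LysM-Cre, and were not called.

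Fabp5, a fatty acid binding protein of skin and macrophages, was dim on its tested probe, being above background on 12 arrays. These were all TAU, TAU/LysM, young SIRT1F/F and old LysM-Cre arrays, but 1 of 3 in young LysM-Cre and 1 of 3 in old SIRT1F/F. It read 6.49, 6.40 and 6.59 for young SIRT1F/F, 6.40, 6.29 and 6.23 for young LysM-Cre, 6.75, 5.60 and 6.32 for old SIRT1F/F, and 6.74, 6.36 and 6.46 for old LysM-Cre. TAU read 7.43 and 7.55 and TAU/LysM 7.89 and 8.27, again above the rest. It rose by 1.00 ± 0.24 (adjusted p = 0.0191) and 1.27 ± 0.24 (adjusted p = 0.0108) in TAU against young and old SIRT1F/F, both lost without either TAU array. In TAU/LysM it rose by 1.77 ± 0.24 (adjusted p = 0.000939) against young LysM-Cre and by 1.56 ± 0.24 (adjusted p = 0.00469) against old LysM-Cre, the latter not called without TAU/LysM 2.

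Ch25h makes 25-hydroxycholesterol, an oxysterol signal of activated macrophages. It read 10.70, 10.09 and 10.01 for young SIRT1F/F, 11.12, 10.09 and 10.51 for young LysM-Cre, 11.46, 10.77 and 10.81 for old SIRT1F/F, and 11.87, 11.62 and 11.35 for old LysM-Cre. TAU read 11.29 and 11.58 and TAU/LysM 11.52 and 11.96, which overlaps the old groups. It rose by 1.17 ± 0.30 in TAU against young SIRT1F/F (adjusted p = 0.0251) and by 1.17 ± 0.30 in TAU/LysM against young LysM-Cre (adjusted p = 0.0348), and was not called against the old groups (0.42 ± 0.30 and 0.13 ± 0.30). The first call was lost without young SIRT1F/F 2 or 3 or either TAU array, and the second without young LysM-Cre 2 or 3 or either TAU/LysM array.

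**Figure D3:**
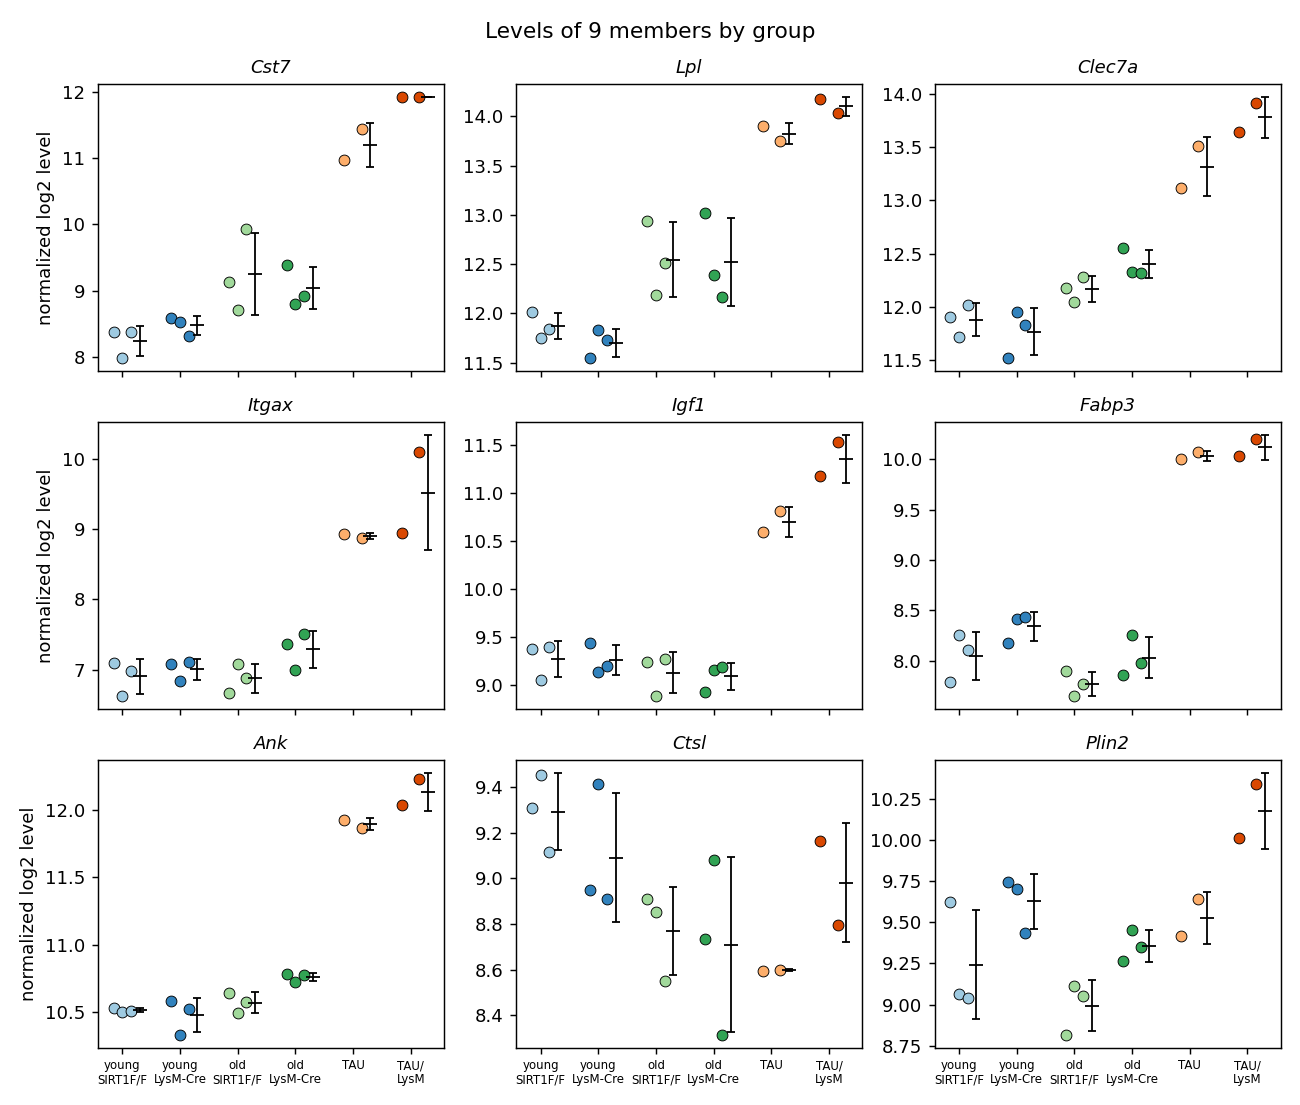
Normalized log2 levels of 9 members are plotted by group, with 1 coloured point per array and the group mean ± SD in black. Cst7, Lpl and Clec7a stood higher in old than in young groups and highest in TAU and TAU/LysM, whereas for Itgax, Igf1, Fabp3 and Ank the young and old groups overlapped or lay close and the 4 TAU and TAU/LysM arrays lay above all others.

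Of the surface members (8 genes, 12 probes), Itgax, Clec7a and Dcstamp differed most. Itgax encodes CD11c, an integrin of dendritic cells and of activated microglia. It read 7.10, 6.62 and 6.99 for young SIRT1F/F, 7.07, 6.83 and 7.11 for young LysM-Cre, 6.66, 7.08 and 6.88 for old SIRT1F/F, and 7.36, 7.0 and 7.5 for old LysM-Cre. TAU read 8.94 and 8.88, and TAU/LysM 8.94 and 10.11, with TAU/LysM 2 the highest array. The differences were 2.00 ± 0.27 (4.01-fold, adjusted p = 0.000715) and 2.03 ± 0.27 (adjusted p = 0.00102) in TAU against young and old SIRT1F/F. They were 2.52 ± 0.27 (adjusted p = 0.000182) and 2.24 ± 0.27 (adjusted p = 0.000641) in TAU/LysM against young and old LysM-Cre.

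Clec7a encodes Dectin-1, a receptor of fungal beta-glucan. Its probe of highest level read 11.90, 11.72 and 12.02 for young SIRT1F/F, 11.52, 11.95 and 11.82 for young LysM-Cre, 12.18, 12.04 and 12.28 for old SIRT1F/F, and 12.55, 12.33 and 12.31 for old LysM-Cre. TAU read 13.12 and 13.52 and TAU/LysM 13.64 and 13.92, and every old array lay above every young one. The differences were 1.44 ± 0.16 (2.71-fold, adjusted p = 0.000217) in TAU against young SIRT1F/F, 1.15 ± 0.16 (adjusted p = 0.00172) against old SIRT1F/F, 2.01 ± 0.16 (4.04-fold, adjusted p = 1.09e-05) in TAU/LysM against young LysM-Cre and 1.38 ± 0.16 (adjusted p = 0.000585) against old LysM-Cre. The next 2 probes by level gave 1.92 ± 0.28 and 1.88 ± 0.29 in TAU against young SIRT1F/F and were called in all 4 TAU comparisons, though their calls were lost without any 1 of 4 arrays against old SIRT1F/F and any 1 of 3 against old LysM-Cre. The dimmest probe, not above background on 3 arrays, was called in none, at 0.33 ± 0.24 in TAU against young SIRT1F/F.

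Dcstamp encodes a membrane protein needed for cell fusion in osteoclasts and giant cells. It read 8.70, 8.65 and 9.14 for young SIRT1F/F, 9.03, 7.95 and 9.33 for young LysM-Cre, 9.05, 8.59 and 9.29 for old SIRT1F/F, and 9.51, 8.52 and 8.98 for old LysM-Cre. TAU read 9.96 and 10.70, and TAU/LysM 11.13 and 11.21. In TAU/LysM it was 2.40 ± 0.38 higher than in young LysM-Cre (adjusted p = 0.00248) and 2.17 ± 0.38 higher than in old LysM-Cre (adjusted p = 0.00854, lost without either TAU/LysM array). In TAU it was 1.5 ± 0.38 higher than in young SIRT1F/F (adjusted p = 0.0216, lost without either TAU array), and the 1.35 ± 0.38 against old SIRT1F/F was not called (adjusted p = 0.0639).

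Smaller shifts were seen in the tetraspanin Cd9, the sialomucin Cd34 and the adhesion protein Cadm1, all of which other brain cells express too. Cd9 read 14.18, 14.32 and 14.33 for young SIRT1F/F, 14.14, 14.37 and 14.21 for young LysM-Cre, 14.56, 14.54 and 14.39 for old SIRT1F/F, and 14.54, 14.42 and 14.37 for old LysM-Cre. It read 14.88 and 14.78 in TAU and 14.91 and 14.94 in TAU/LysM, above all others. In TAU against old SIRT1F/F it was not called. Cd9 rose by 0.55 ± 0.10 in TAU against young SIRT1F/F (adjusted p = 0.00533, lost without TAU 1), by 0.68 ± 0.10 in TAU/LysM against young LysM-Cre (adjusted p = 0.00203), and by 0.48 ± 0.10 against old LysM-Cre (adjusted p = 0.0295, lost without either TAU/LysM array or old LysM-Cre 2 or 3). Cd34, which also marks endothelium, read 10.23, 10.43 and 10.29 for young SIRT1F/F, 9.84, 10.05 and 10.26 for young LysM-Cre, 10.56, 10.22 and 10.20 for old SIRT1F/F, and 10.51, 10.21 and 10.18 for old LysM-Cre. It read 10.87 and 11.01 in TAU and 10.70 and 11.05 in TAU/LysM. It rose by 0.63 ± 0.16 (adjusted p = 0.0241) and 0.62 ± 0.16 (adjusted p = 0.0488) in TAU against young and old SIRT1F/F and by 0.82 ± 0.16 (adjusted p = 0.00967) in TAU/LysM against young LysM-Cre. The first was lost without young SIRT1F/F 1 or 3 or either TAU array, the second without any 1 of 10 arrays, and the third without TAU/LysM 2. Mean log2 levels of 4 endothelial genes were 11.18 to 11.49 in TAU, 10.20 to 10.99 in young SIRT1F/F and 10.94 to 11.37 in old SIRT1F/F, and 10.43 to 11.22 in TAU/LysM beside 10.24 to 10.86 in young LysM-Cre. Of these 4 genes 2 were called higher in TAU against young SIRT1F/F (list median 0.78), and 0 in TAU against old SIRT1F/F (0.19) or TAU/LysM against young LysM-Cre (0.12, limma). Their part in the Cd34 differences was not tested.

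Cadm1 read 10.87, 10.64 and 11.17 for young SIRT1F/F, 10.66, 11.05 and 10.85 for young LysM-Cre, 11.45, 11.22 and 11.52 for old SIRT1F/F, 11.41, 10.99 and 11.05 for old LysM-Cre, 11.67 and 11.66 in TAU, and 11.39 and 11.57 in TAU/LysM. TAU/LysM overlapped the old groups, and Cadm1 was not called against the old groups in TAU or TAU/LysM. It rose by 0.77 ± 0.17 in TAU against young SIRT1F/F (adjusted p = 0.0123, lost without either TAU array) and by 0.63 ± 0.17 in TAU/LysM against young LysM-Cre (adjusted p = 0.0419, lost without any 1 of 7 arrays). Cd52, a short surface glycoprotein of leukocytes, read 14.47, 14.09 and 14.14 for young SIRT1F/F, 14.34, 14.35 and 14.35 for young LysM-Cre, 14.23, 14.18 and 14.09 for old SIRT1F/F, and 14.43, 14.17 and 14.29 for old LysM-Cre. It read 14.30 and 14.57 in TAU and 14.77 and 14.85 in TAU/LysM, and was called in TAU/LysM against young LysM-Cre alone (0.46 ± 0.13, adjusted p = 0.0454, lost without any 1 of 9 arrays). Gpr84, a receptor of medium-chain fatty acids, was called in no comparison on either of its 2 probes. On the probe of higher level, old arrays read 13.44 to 14.02, TAU and TAU/LysM arrays 13.51 to 13.65, and young arrays 13.01 to 13.43.

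Of the 4 secreted members, Igf1 and Ccl6 were called higher in all 4 TAU comparisons, Mamdc2 in 3 and Timp2 in none. Insulin-like growth factor 1 read 9.37, 9.05 and 9.39 for young SIRT1F/F, 9.44, 9.14 and 9.20 for young LysM-Cre, 9.24, 8.88 and 9.27 for old SIRT1F/F, and 8.93, 9.16 and 9.19 for old LysM-Cre. TAU read 10.59 and 10.81 and TAU/LysM 11.18 and 11.54, with no overlap between the 4 and the other 12. Igf1 was 1.43 ± 0.16 (2.69-fold, adjusted p = 0.000235) higher in TAU against young SIRT1F/F and 1.57 ± 0.16 (adjusted p = 0.000142) against old SIRT1F/F. In TAU/LysM it was 2.10 ± 0.16 (4.29-fold, adjusted p = 1.03e-05) higher than in young LysM-Cre and 2.27 ± 0.16 (adjusted p = 6.02e-06) higher than in old LysM-Cre.

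Ccl6, a CC chemokine of mouse myeloid cells, read 10.16, 9.998 and 10.05 for young SIRT1F/F, 9.76, 9.93 and 10.08 for young LysM-Cre, 10.5, 10.60 and 10.14 for old SIRT1F/F, and 10.67, 10.24 and 10.37 for old LysM-Cre. TAU read 11.09 and 11.08 and TAU/LysM 11.30 and 11.42, above the rest, and old arrays lay above young SIRT1F/F except for 1 at 10.14. Ccl6 rose by 1.01 ± 0.15 (adjusted p = 0.00155) in TAU against young SIRT1F/F, by 0.67 ± 0.15 (adjusted p = 0.0288) against old SIRT1F/F, by 1.44 ± 0.15 (adjusted p = 0.000185) in TAU/LysM against young LysM-Cre and by 0.93 ± 0.15 (adjusted p = 0.00633) against old LysM-Cre. The calls against the old groups were lost without old SIRT1F/F 1 or 3 or either TAU array, and without TAU/LysM 2.

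Mamdc2, which encodes a secreted protein with MAM domains, was not above background on any young array. It read 6.13, 5.91 and 5.89 for young SIRT1F/F, 5.78, 6.31 and 6.12 for young LysM-Cre, 6.02, 6.16 and 6.41 for old SIRT1F/F, 6.24, 6.52 and 6.41 for old LysM-Cre, 6.78 and 6.81 in TAU, and 6.96 and 7.89 in TAU/LysM. With the young groups at their floor (the higher of the lowest signal above background on an array and the probe's own), Mamdc2 was at least 1.33-fold higher in TAU than in young SIRT1F/F (adjusted p = 0.0316) and at least 2.03-fold higher in TAU/LysM than in young LysM-Cre (adjusted p = 0.00348). The fitted log2 difference from old LysM-Cre was 1.03 ± 0.22 (adjusted p = 0.0295). Without TAU/LysM 2 the fitted differences in TAU/LysM were 0.89 and 0.57, and neither was called. The TAU call was lost without young SIRT1F/F 2 or 3 or either TAU array, and that against old LysM-Cre without any 1 of its 3 arrays. Timp2, an inhibitor of matrix metalloproteases, read 12.85 to 13.17 on all 16 arrays and was called in none.

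Among iron, oxidase and transcription members, only Hif1a was called. It encodes the oxygen-regulated subunit of HIF-1 and read 9.18, 9.51 and 8.99 for young SIRT1F/F, 8.53, 9.66 and 8.48 for young LysM-Cre, 9.61, 9.39 and 9.51 for old SIRT1F/F, and 9.38, 9.49 and 8.81 for old LysM-Cre. TAU read 10.20 and 10.30 and TAU/LysM 9.76 and 10.08. Hif1a was not called against the old groups. It rose by 1.02 ± 0.30 in TAU against young SIRT1F/F (adjusted p = 0.0415, lost without any 1 of 8 arrays), and stood 1.03 ± 0.30 higher in TAU/LysM against young LysM-Cre without being called (adjusted p = 0.053). Fth1, ferritin heavy chain, differed by 0.00 to 0.08 on 2 probes in the 4 TAU comparisons and read 36907 to 47542 intensity units, near the brightest probes of the arrays. Egr2, an early growth response factor, was not called, with values from -0.10 to 0.26 in the 4 TAU comparisons.

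Of the members tied to membranes and actin, Ank differed most clearly. Ank, a transporter that exports ATP and pyrophosphate, read 10.53, 10.5 and 10.51 for young SIRT1F/F, 10.58, 10.33 and 10.52 for young LysM-Cre, 10.64, 10.49 and 10.58 for old SIRT1F/F, and 10.78, 10.72 and 10.78 for old LysM-Cre. TAU read 11.93 and 11.87 and TAU/LysM 12.04 and 12.23, more than 1 log2 unit above every other array. The difference was 1.39 ± 0.10 (2.62-fold, adjusted p = 6.09e-06) in TAU against young SIRT1F/F and 1.33 ± 0.10 (adjusted p = 1.2e-05) against old SIRT1F/F. It was 1.66 ± 0.10 (adjusted p = 1.17e-06) in TAU/LysM against young LysM-Cre and 1.38 ± 0.10 (adjusted p = 6.02e-06) against old LysM-Cre.

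Capg, which caps actin filaments, rose in TAU against young SIRT1F/F on both probes (1.17 ± 0.19 and 1.09 ± 0.17, adjusted p = 0.00185 and 0.00155) and in TAU/LysM against young LysM-Cre (1.23 ± 0.19 and 1.18 ± 0.17, adjusted p = 0.00192 and 0.0012). The brighter probe read 10.54, 10.37 and 10.90 for young SIRT1F/F, 10.73, 10.71 and 11.08 for young LysM-Cre, 11.47, 11.19 and 10.86 for old SIRT1F/F, 11.38, 11.29 and 11.41 for old LysM-Cre, 11.63 and 11.92 in TAU, and 12.10 and 12.03 in TAU/LysM. Against the old groups the second probe was called (0.83 ± 0.17 and 0.75 ± 0.17, adjusted p = 0.0147 and 0.0328) and the brighter one was not (0.60 ± 0.19 and 0.71 ± 0.19). The second probe's calls were lost without old SIRT1F/F 2 or either TAU array, and without old LysM-Cre 2 or 3 or either TAU/LysM array.

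Anxa5, which binds phosphatidylserine, read 12.60, 12.19 and 12.19 for young SIRT1F/F, 12.42, 12.36 and 12.49 for young LysM-Cre, 12.73, 12.46 and 12.46 for old SIRT1F/F, 12.73, 12.56 and 12.53 for old LysM-Cre, 12.86 and 13.02 in TAU, and 13.09 and 13.06 in TAU/LysM. It rose by 0.61 ± 0.14 in TAU against young SIRT1F/F (adjusted p = 0.0119) and by 0.65 ± 0.14 in TAU/LysM against young LysM-Cre (adjusted p = 0.0143), and each call was lost without either array of its TAU group. Against the old groups Anxa5 was not called. Baiap2l2, a membrane-bending BAR domain protein, was above background on both TAU arrays and 1 old SIRT1F/F array alone. It read 5.63, 6.10 and 5.69 for young SIRT1F/F, 5.82, 5.71 and 6.16 for young LysM-Cre, 6.49, 5.91 and 5.92 for old SIRT1F/F, 5.88, 5.86 and 5.80 for old LysM-Cre, 6.37 and 6.76 in TAU, and 6.23 and 5.82 in TAU/LysM. The probe met the filter of 2 arrays only through the TAU arrays. Its call in TAU, 1 of the 26 higher against young SIRT1F/F, is therefore not independent of that filter. TAU was at least 1.13-fold higher than young SIRT1F/F (adjusted p = 0.0338). The call was lost without young SIRT1F/F 1 or 3 or either TAU array, with no filter on dim probes and with the replicate block. With no call in TAU/LysM, the groups overlapped there.

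The same members moved in TAU with and without LysM-Cre, in comparisons that share no array. Of the 26 probes higher in TAU against young SIRT1F/F and the 26 higher in TAU/LysM against young LysM-Cre, 24 probes of 19 genes were in both, which held for 1.59% of all tested probes. Over the 40 member probes the pair of log2 differences correlated at r = 0.93 with 38 of the same sign. Over all 16344 probes r was 0.60 and 72.9% had the same sign. These are descriptions over probes that share arrays and 1 normalization, and probes are not replicates.

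**Figure D4:**
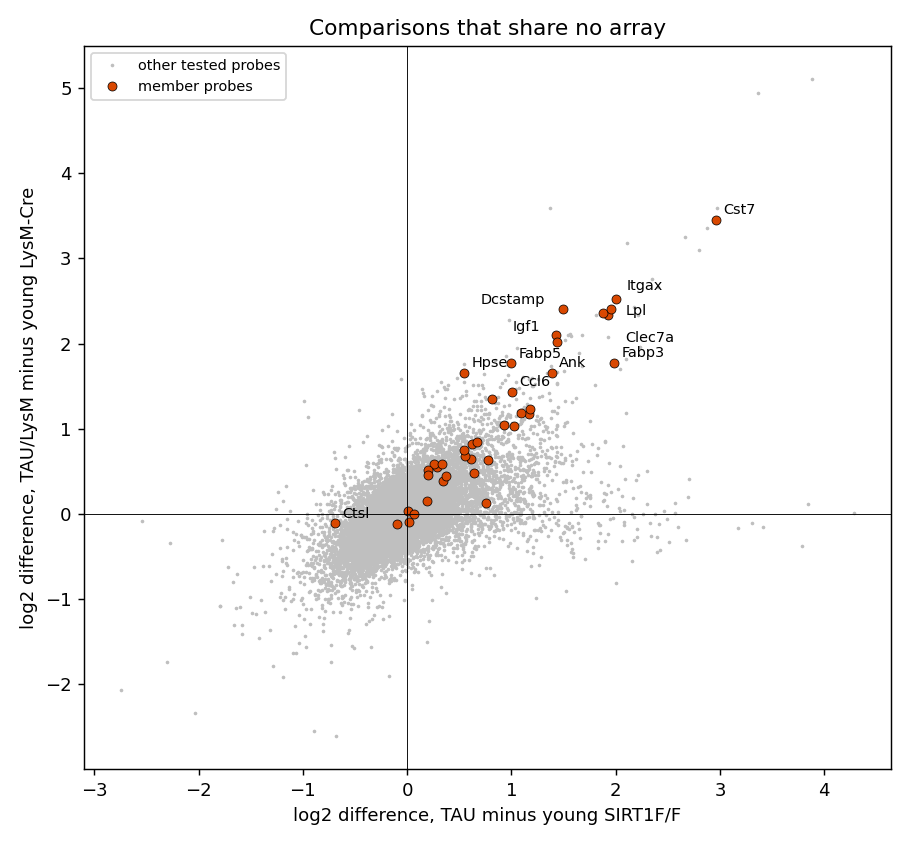
Each point is a tested probe, with the log2 difference of TAU from young SIRT1F/F on the horizontal axis and that of TAU/LysM from young LysM-Cre on the vertical axis, and members are filled in orange. Members lie along the upper right arm led by Cst7 at 2.96 and 3.46, Hpse lies above it at 0.55 and 1.66, and Ctsl lies to the left at -0.70 and -0.11.

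With age alone fewer members were called, as were fewer of all probes. In old against young SIRT1F/F, 0 member probes were called by limma against 1.27% of all probes, with 11 of 40 (and 14.7% of all probes) at an unadjusted p under 0.05 and a median of 0.17 (all probes -0.03). In old against young LysM-Cre, 1 was called against 1.71%, with 17 (and 17.4% of all probes) at an unadjusted p under 0.05 and a median of 0.27 (all -0.03). That probe was the first of Clec7a (0.63 ± 0.14, adjusted p = 0.0441), and its call was lost without young LysM-Cre 1 or 3 or any old array. The count of members called was 0 without young LysM-Cre 3, any old SIRT1F/F array, or old LysM-Cre 1 or 2. It was 3 without young LysM-Cre 2, 2 without old LysM-Cre 3, and 5 with the replicate number as a block. In SIRT1F/F the count was 1 without old LysM-Cre 2. The next members in SIRT1F/F were Gpr84 (0.58 ± 0.14, adjusted p = 0.0558) and Cst7 (1.01 ± 0.25, adjusted p = 0.0732), and in LysM-Cre these differed by 0.54 ± 0.14 and 0.56 ± 0.25. Lpl differed by 0.67 ± 0.21 and 0.82 ± 0.21 with age in the 2 genotypes, and Ch25h by 0.75 ± 0.27 and 1.04 ± 0.27, none of them called. The 2 age comparisons share no array, and 33 of 40 member differences had the same sign in both (r = 0.81), against 73.0% of all probes (r = 0.74).

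The age and TAU values were not alike for all members. Across comparisons with no shared array, TAU against young SIRT1F/F and age in LysM-Cre had 31 of 40 member differences of the same sign (r = 0.55; all probes 68.8%, r = 0.51), and TAU/LysM against young LysM-Cre and age in SIRT1F/F had 30 (r = 0.42; all probes 64.5%, r = 0.41). Gpr84 stood 0.58 ± 0.14 and 0.54 ± 0.14 higher with age and -0.21 ± 0.15 and -0.09 ± 0.15 against old arrays in TAU and TAU/LysM. Igf1, called in all 4 TAU comparisons, had age values of -0.14 ± 0.15 and -0.17 ± 0.15.

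LysM-Cre against SIRT1F/F gave almost no member calls. In young mice 0 of 40 were called against 0% of all probes, in old mice 0 against 0.0184%, and between TAU/LysM and TAU 0 against 1.48% (limma). At an unadjusted p under 0.05 there were 2, 3 and 9 members, against 7.94%, 6.6% and 13.2% of all probes. The member medians were -0.03, 0.05 and 0.17, and those of all probes 0.00, -0.01 and 0.01. In the average of the 3 differences, 1 member was called against 1.22% of all probes, and 13 were at an unadjusted p under 0.05 against 19.9%. The 1 called was Plin2, perilipin 2, which coats lipid droplets and whose promoter with an E-box is printed above.

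Plin2 read 9.62, 9.07 and 9.04 for young SIRT1F/F and 9.75, 9.70 and 9.43 for young LysM-Cre. It read 8.82, 9.11 and 9.05 for old SIRT1F/F and 9.27, 9.45 and 9.35 for old LysM-Cre. TAU read 9.41 and 9.64 and TAU/LysM 10.01 and 10.34, so LysM-Cre arrays lay above their controls in the old and TAU sets, and 1 young SIRT1F/F array overlapped young LysM-Cre. The differences were 0.38 ± 0.16, 0.36 ± 0.16 and 0.65 ± 0.19, and their average 0.46 ± 0.10 (adjusted p = 0.0482). That call was lost when any 1 of 14 arrays was left out, with a difference of 0.41 to 0.53 over all 16 removals, and the count of members called was 2 without young SIRT1F/F 1 or TAU/LysM 1. Markers of monocytes, neutrophils and B cells moved the same way, and those of red cells did not. Red cell genes (2 tested) had medians of -0.05 in young, -1.02 in old and 1.83 in TAU arrays, with 0 called. Monocyte genes had medians of 0.71, 0.67 and 1.02 in the 3 genotype comparisons and 0.83 in their average, where 2 of 4 were called higher, F10 (0.91 ± 0.10, adjusted p = 0.000802) and Plac8 (0.84 ± 0.17, adjusted p = 0.0442). Their mean levels were 9.54 to 10.58 for young SIRT1F/F, 10.46 to 11.15 for young LysM-Cre, 10.34 to 10.80 for old SIRT1F/F and 11.20 to 11.38 for old LysM-Cre. Neutrophil genes had medians of 0.63 to 0.66 with 0 of 8 called, and 2 of 3 B cell genes were called higher in the average. In it, 6 of 7 oligodendrocyte genes and 1 of 6 astrocyte genes were lower. The part of these in the Plin2 difference was not tested. Plin2 also rose by 0.82 ± 0.18 in TAU/LysM against old LysM-Cre (adjusted p = 0.0295, lost without any 1 array of either group).

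**Figure D5:**
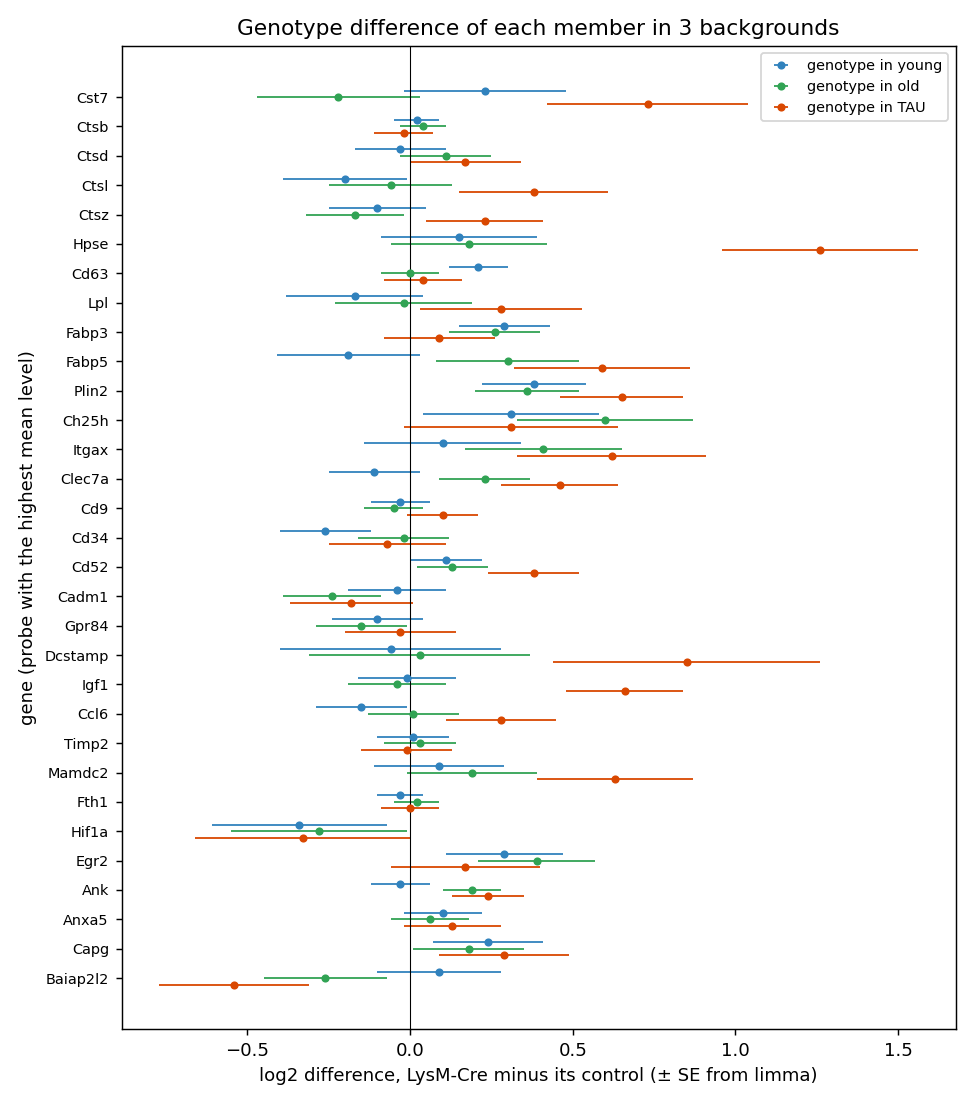
The log2 difference between LysM-Cre and its control is plotted for each member, on its probe of highest level, in young, old and TAU arrays, and bars are ± SE from limma. Most values lie within 0.5 of 0, Plin2 lies right of 0 in all 3, and Hpse in TAU stands out at 1.26 ± 0.30.

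Between TAU/LysM and TAU, the largest member differences were Hpse (1.26 ± 0.30, adjusted p = 0.0535), Dcstamp (0.85 ± 0.41), Cst7 (0.73 ± 0.31, 95% interval 0.06 to 1.39), Igf1 (0.66 ± 0.18, adjusted p = 0.0982) and Plin2 (0.65 ± 0.19). Of the 40 differences 31 lay above 0, against 52.3% of all probes. None was called, and 3 were without TAU/LysM 1 (Hpse, Itgax and Mamdc2) and 1 without young SIRT1F/F 1 or 2. Hpse differed by 1.80 without TAU/LysM 1 and by 0.72 without TAU/LysM 2. Itgax differed by 0.62, by 1.20 without TAU/LysM 1 and by 0.04 without TAU/LysM 2, and Mamdc2 by 0.63, 1.09 and 0.17. Dcstamp differed by 0.48 without TAU 1. These 2 groups also differed in 6 of 7 oligodendrocyte genes and 5 of 6 choroid plexus and ependyma genes, all lower in TAU/LysM, in 3 of 6 astrocyte genes, also lower, and in 1 of 4 monocyte genes, which was higher, and the part of those in the member values was not tested. The red cell genes read a mean of 11.36 on TAU/LysM 1 and 7.98 on TAU/LysM 2. The interaction tests called 0 members: TAU by genotype called 0.6% of all probes (2 members at an unadjusted p under 0.05, smallest member adjusted p = 0.228), and age by genotype 0% (0 members at an unadjusted p under 0.05). Without TAU/LysM 1, 1 member was called in TAU by genotype.

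In the list of TREM2 pathway genes and regulators, 14 genes on 17 probes, some rose. Trem2, Tyrobp, Syk, Plcg2 and Inpp5d were not among those called higher. In the 4 TAU comparisons 5, 3, 5 and 3 genes were called higher (young SIRT1F/F, old SIRT1F/F, young LysM-Cre, old LysM-Cre as controls) and 1, 0, 1 and 0 lower. Higher were 6, 4, 7 and 5 of the 17 probes, where 6.31%, 2.72%, 3.46% and 1.48% of all probes were called higher. Trem2 itself differed by -0.15 and 0.06 and Tyrobp by 0.04 and 0.19 in TAU and TAU/LysM against their young controls, not called. Plcg2 differed by -0.07 and -0.21 and Inpp5d by -0.52 and -0.44, also not called. Syk differed by -0.65 ± 0.23 and -0.84 ± 0.23, and only the second was called lower (limma, adjusted p = 0.0444). Tfeb differed by -0.43 ± 0.13 and -0.3 ± 0.13, and only the first was called lower (adjusted p = 0.041). The other Tfeb probe was at 0.08 and -0.13, not called. Gpnmb, a lysosomal and surface glycoprotein, differed by 3.88 ± 0.22 and 5.11 ± 0.22, and the receptor kinase Axl by 0.89 ± 0.19 and 1.15 ± 0.19. The transcription factor Bhlhe40 differed by 0.88 ± 0.18 and 1.12 ± 0.18, the galectin Lgals3 by 0.64 ± 0.17 and 1.00 ± 0.17, and Apoe by 0.60 ± 0.16 in both, all called. These values are from the probe of highest level. A second Gpnmb probe, not above background on young arrays, was at least 7.80-fold and 21.1-fold higher. The dimmest Gpnmb probe was not above background on TAU or young arrays and not called between them (adjusted p = 0.455), and was at least 1.20-fold higher in TAU/LysM (adjusted p = 0.00434). Trem2 read 25091.7 to 34804.6 intensity units, a range where differences may be compressed.

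Homeostatic microglia genes (14 of 16 tested, 24 probes) fell in part and none rose. In the 4 TAU comparisons 3, 3, 7 and 4 genes were called lower, with list medians of -0.18, -0.18, -0.28 and -0.26. These were 4, 4, 8 and 5 of the 24 probes, where 5.64%, 1.27%, 3.81% and 0.783% of all probes were called lower. Tmem119, a microglial membrane protein, fell by 0.62 ± 0.10 in TAU against young SIRT1F/F (-0.62, adjusted p = 0.00239) and by 0.84 ± 0.10 in TAU/LysM against young LysM-Cre (-0.84, adjusted p = 0.000486). Sall1, a transcription factor of microglial identity, fell by 0.77 ± 0.13 and 0.90 ± 0.13, and the lectin Siglech by 0.49 ± 0.08 and 0.34 ± 0.08 on its probe of highest level. Siglech was not called on its other 2 probes, the brighter of them at -0.05 ± 0.22 in TAU and -0.14 ± 0.22 in TAU/LysM, and the other not above background on any TAU or TAU/LysM array. Cx3cr1, the fractalkine receptor, fell in TAU/LysM (-0.46 ± 0.11), and P2ry12, a purinergic receptor, was called in none of the 4 (-0.42 to -0.15). The mean of the homeostatic list lay -0.22 to -0.17 from young SIRT1F/F on the TAU arrays and -0.43 to -0.40 on TAU/LysM, where the disease-associated mean lay at 0.78 to 0.92 and 1.02 to 1.23.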

How the data were processed

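Per the labels, CD11b-positive cells were taken from digested mouse brains after myelin removal and biotinylated cRNA was hybridised to Illumina arrays. The scanner was not given in the sources used here. In 1 table, the authors deposited raw intensity values per probe, without background subtraction or normalization as judged from the values. They also deposited log2 values that equal quantile-normalized log2 intensity to within 5e-09, used here as an alternative. Background was corrected by normexp with an offset of 16, using every probe on the array, before log2 transformation and quantile normalization. A probe was above background where it exceeded the mode of an array's log2 intensity by 1.645 spreads, and the 16344 probes above it on at least 2 of 16 arrays were tested.

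Group means of all 6 groups were fitted together in limma 3.58.1 under R 4.3.3, and each comparison was a contrast of them. The fit had 10 residual and 3.68 prior degrees of freedom. The adjusted p is that of Benjamini-Hochberg over all tested probes and calls were made under 0.05. The fit was tested on simulated data. The number of arrays limits the precision.

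Genes were named from the platform table, with 1 symbol for 23978 probes and none for 1719. Probes called in at least 1 comparison, and genes that define the state, are given on every array, with the probe of highest mean level first. The members and lists were chosen with earlier results of these data known.

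Same-numbered arrays of the young genotypes deviated together (correlations 0.35, 0.51 and 0.24), with numbers from the titles. The fit reported here used no pairing. A block of the replicate number over all groups was an alternative and changed no call between the young genotypes. Correlations were 0.05 to 0.07 between the old genotypes, 0.03 to 0.14 between ages in SIRT1F/F and -0.02 to 0.40 in LysM-Cre. Alternatives were another offset, the deposited values, other filters, the block, array weights, a trended variance, an oligodendrocyte covariate, and leaving out arrays.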

Additional observations from a re-analysis of the deposited data

How the results depend on the processing

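Every member called in a TAU comparison kept its direction under another offset, the deposited values, both filters, the replicate block, array weights, a trended and robust variance, and each left-out array. With the oligodendrocyte level as covariate, 0 members were called in TAU against young or old SIRT1F/F, and those of called members turned to -0.289 (Dcstamp), -1.018 (Fabp5), -0.339 (Anxa5) and -1.429 (Ch25h) against young SIRT1F/F and to -0.813 (Fabp5) and -0.85 (Cst7) against old SIRT1F/F. That level separates TAU from the other arrays. With the 5 arrays of low Xist or low Eif2s3y left out, 5 members were called in TAU against old SIRT1F/F, 13 in TAU/LysM against young LysM-Cre and 9 against old LysM-Cre, with fewer samples. With no filter 12 were called in TAU/LysM against old LysM-Cre, where more probes were tested.

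Members called between TAU/LysM and TAU, of 40, numbered 1 with offset 50, 2 with the deposited values, 1 with array weights and 1 with a trended variance. The average genotype comparison called 0 with no filter and with the oligodendrocyte covariate. Age in SIRT1F/F called 1 with offset 50, the deposited values, a filter of 8 arrays, a trended variance or the covariate, and 2 with the replicate block. Age in LysM-Cre called 3 with offset 50, 4 with the deposited values, 0 with no filter, 5 with the replicate block, 5 with array weights, 2 with a trended variance and 0 with those 5 arrays left out. The cause was not tested. In the main fit 1.48% of all probes were called between TAU/LysM and TAU and 1.22% in the average. With age the main shares were 1.27% in SIRT1F/F and 1.71% in LysM-Cre. Shares of all probes in the other settings, or with an array left out, are not given here. Small member counts there may thus be no more than the share over all probes. Same-numbered arrays correlated at 0.05 to 0.07 between the old groups and at 0.24 for both numbers of TAU with TAU/LysM. These TAU values are equal by construction, as each group holds 2 arrays centred on their mean. Correlations were 0.03 to 0.14 between ages in SIRT1F/F and -0.02 to 0.40 in LysM-Cre. No numbers were used as pairs in the main fit. With the replicate block, calls were lost for Baiap2l2 and Cd34 in TAU (young and old controls), for Cd52 in TAU/LysM against young LysM-Cre and for Cd9, Hpse and Plin2 against old LysM-Cre. The block moved no other count by over 1.5 times.

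With each array left out in turn, the counts ran from 13 to 27 in TAU against young SIRT1F/F, 6 to 15 against old SIRT1F/F, 16 to 27 in TAU/LysM against young LysM-Cre, 7 to 20 against old LysM-Cre, 0 to 3 between TAU/LysM and TAU, 0 to 2 in the average, 0 to 1 with age in SIRT1F/F, 0 to 3 with age in LysM-Cre, 0 to 1 in TAU by genotype, and were 0 in the other 3.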
